A study of Mus musculus with 2 samples.

Results

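The aminoacyl-tRNA synthetases were followed as a family of 36 nuclear genes, 20 for the cytosolic enzymes and 16 for the mitochondrial ones. Members were chosen by symbol alone, as the gene probes named in the array files after a synthetase, with symbols ending in 2 taken as mitochondrial. They had 46 probes, and 35 of the 36 genes were among the 22139 genes measured on both arrays. The samples were labelled as beta cells of C57BL/6J mice that were 6 months old and ate a high-fat diet. One came from wild-type mice (CSE-WT) and the other from mice without CSE (CSE-KO), the hydrogen sulfide-producing enzyme cystathionine gamma-lyase encoded by Cth, and the wild type served as the control. Each genotype was hybridised to 1 single-colour Agilent array, so no difference here has a replicate check and none was tested. How the knockout was made, how the cells were isolated and how many animals gave each sample are not given in the sources used here.

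An aminoacyl-tRNA synthetase joins one amino acid to its matching tRNA with the energy of ATP, and the charged tRNA then carries that amino acid to the ribosome. Cytosolic enzymes supply the ribosomes that make most proteins, including insulin in beta cells, whereas mitochondrial enzymes are imported to serve the few proteins encoded by mitochondrial DNA. Several cytosolic enzymes assemble with scaffold proteins into the multi-synthetase complex. Many of their genes are known to be induced by the transcription factor ATF4 when amino acids run short or the endoplasmic reticulum is stressed.

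Probe sequences are shown for Mars, Mars2 and Cars2, which are among the members with the widest differences between the arrays, so that the transcript stretch behind each value can be seen. All are 60 bases long and are printed 5′ to 3′ as deposited, in lower case with no base marked. The Mars probe lay on the minus strand at chr10:126733940-126733999, and the Mars2 probe on the plus strand at chr1:55295642-55295701 (build mm9 in the files). The Cars2 probes lay on the minus strand at chr8:11516152-11516211 (the first) and chr8:11547757-11547816 (the second). Each of these 4 sequences can be read through in at least one frame without a stop codon. Exon and intron placement was not determined here.
Mars: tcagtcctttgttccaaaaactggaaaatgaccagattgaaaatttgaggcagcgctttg
Mars2: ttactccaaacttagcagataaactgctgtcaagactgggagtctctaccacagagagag
Cars2, first probe: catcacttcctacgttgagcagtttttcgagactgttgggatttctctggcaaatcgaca
Cars2, second probe: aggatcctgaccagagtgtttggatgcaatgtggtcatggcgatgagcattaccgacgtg

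Values are processed fluorescence intensities in scanner units, and a difference is the log2 intensity of CSE-KO minus that of CSE-WT after each array's 75th percentile over gene probes was subtracted. That percentile stood at 519 units for CSE-WT and 540 for CSE-KO, so a gene with no difference has a slightly higher intensity on the CSE-KO array. Between 57.0% and 59.6% of the 55681 gene probes were well above background, and no gene spot was saturated. Where a gene had several measured probes, the probe with the highest level stood for it. The technical error is a spot SD, the scatter expected of a difference between 2 single spots at that signal level. It was taken from 264 probes printed 10 times on each array and holds no biological spread. Below the mean level of the dimmest group of those probes, the spot SD was held at 0.2603. Mars2, Nars2 and the dimmest probes of Farsa, Aars and Pars2 lay below that level, so their own scatter may be wider. Both Cth probes were not well above background on either array, at 12.8 and 13.5 units in CSE-WT and 3.68 and 3.15 units in CSE-KO. The 95th percentile of the negative control probes was 4.32 units in CSE-WT and 3.43 in CSE-KO, so both Cth probes lay above it in CSE-WT and 1 of them did in CSE-KO.

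Most synthetase genes lay within 1.2-fold between the arrays. Of the 35 measured genes, 16 were higher and 19 lower in CSE-KO, with a median difference of -0.07 (log2) beside -0.0061 over all measured genes, of which 48.7% were higher and 51.3% lower. A difference above 1.2-fold was seen for Vars and Cars2 (higher) and for Mars and Mars2 (lower), so 31 genes lay within 1.2-fold. Over all genes 12.4% were more than 1.2-fold higher and 10.6% more than 1.2-fold lower, or 23% in either direction. Only Mars2 was past 2-fold, on the lower side, where 0.89% of all genes were, and no synthetase was more than 2-fold higher, where 0.718% were. Because small fold differences are more frequent among dim genes, the 29 members brighter than the median of measured genes were also set beside the 11069 genes brighter than it. Of these 29, 15 were higher and 14 lower, where 44% and 56% of the bright genes were. By size, 2 of the 29 were more than 1.2-fold higher and 1 more than 1.2-fold lower, against 5.11% and 5.55% of the bright genes, and 10.7% in either direction. None of the 29 was past 2-fold, where 0.126% of the bright genes were higher and 0.0271% lower. The median difference was 0.0098 for the 29 and -0.0202 for the bright genes.

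**Figure D1:**
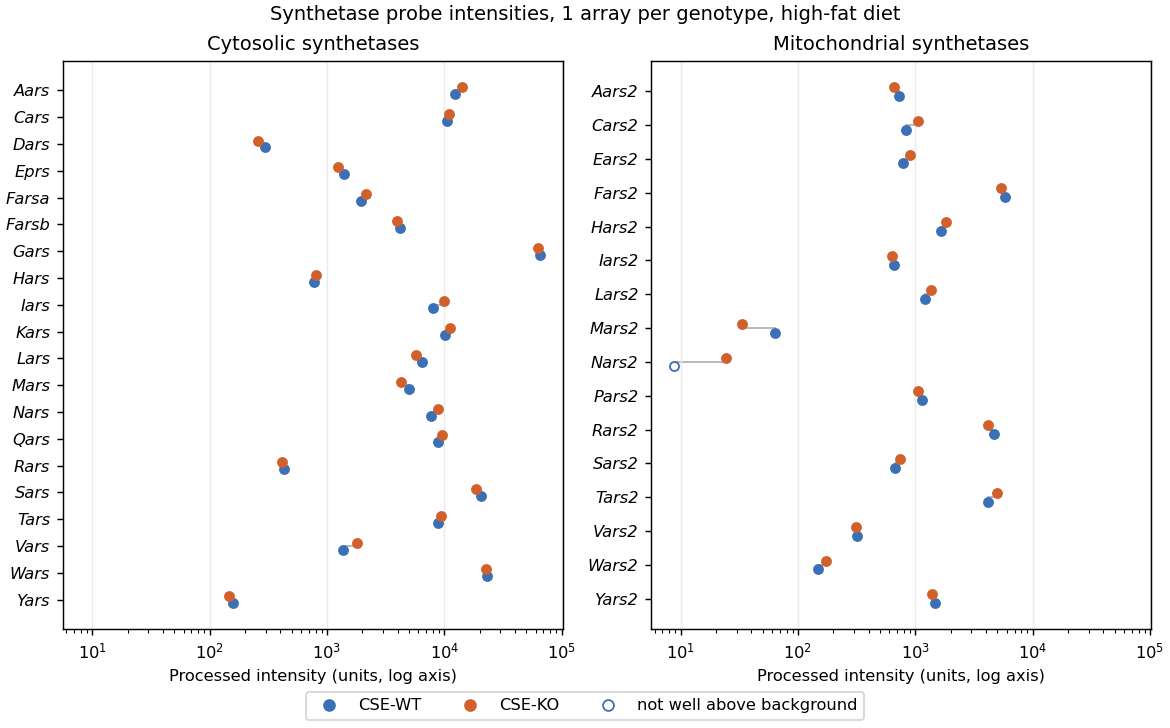
Processed intensity (scanner units, log axis) of the highest-level probe of each synthetase gene in CSE-WT (blue) and CSE-KO (orange), with 1 array per genotype. The pairs of points lie close together for most genes, Mars2 drops from 63.9 to 33.1 units, and the open point shows that Nars2 was not well above background in CSE-WT.

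The spot SD ran from 0.0423 to 0.2603 over the members, with a median of 0.0532. Measured against it, 14 genes differed by more than 3 times their SD, 6 of them higher and 8 lower. The 8 include Mars2, whose SD was held at 0.2603 and may be too small. Over all measured genes 10.4% were higher and 12.4% lower by that rule, and over the bright genes 12.8% and 18.6%, beside 6 and 7 of the 29 bright members. Another 17 members differed by 1 to 3 times their SD and 4 (Cars, Hars, Tars and Vars2) by less than 1. With the local median of neighbouring bright spots subtracted, 4 of the 8 lower members (Eprs, Sars, Aars2 and Fars2) no longer passed and Kars did on the higher side, which left 7 higher and 4 lower, beside 12.2% and 10.7% of all genes. The rule covers the scatter of spots, not position on the slide or the spread between animals.

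Among the 8 enzymes of the multi-synthetase complex, 3 were higher and 5 lower, where 48.7% and 51.3% of all genes were. Their median was -0.17. Iars, the isoleucyl enzyme, read 8049 units in CSE-WT and 9908 in CSE-KO, a difference of 0.24 (spot SD 0.043). Mars, the methionyl enzyme, read 5025 units in CSE-WT and 4234 in CSE-KO, or 1.23-fold lower (-0.30, spot SD 0.0423), the lowest value of any cytosolic member. The aspartyl enzyme Dars read 297 and 259 units (-0.25, spot SD 0.0933), which is under 3 times its SD. These 3 genes show that members of one complex lay on both sides of 0.

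Eprs, whose protein charges both glutamate and proline, read 1403 units in CSE-WT and 1234 in CSE-KO (-0.24, spot SD 0.057). Its spot lay in a small patch of the slide where dim spots differed by -25.0 units (CSE-KO minus CSE-WT), and it was the only member probe in such a patch. With the local median of neighbouring bright spots subtracted, its difference was -0.15, and the median of the complex enzymes was -0.11. Leaving out probes in patches gave the same group a median of -0.11 as well. The leucyl enzyme Lars was also lower (-0.23), the arginyl enzyme Rars was at -0.11, and the lysyl enzyme Kars (0.10) and glutaminyl enzyme Qars (0.06) were above 0. The Kars gene also supplies the mitochondrial lysyl enzyme.

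The 3 scaffold proteins of the complex were all slightly lower, where 51.3% of all genes and 56% of the bright genes were. None was past 1.2-fold, where 23% of all genes were in either direction. Only Aimp1 differed by more than 3 times its spot SD, where 12.4% of all genes were lower by that rule. Aimp1 read 6679 units in CSE-WT and 6035 in CSE-KO (-0.20), Aimp2 read 8049 and 7775 units (-0.11), and Eef1e1 read 841 and 793 units (-0.14). Their median of -0.14 lay beside -0.17 for the enzymes they hold.

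The 12 cytosolic enzymes outside the complex were evenly divided, with 6 higher, 6 lower and a median of 0.0027. Vars, the valyl enzyme, read 1358 units in CSE-WT and 1792 in CSE-KO, a difference of 0.34 (spot SD 0.0546) or 1.27-fold higher. It was the largest positive difference of any member. Nars, the asparaginyl enzyme, read 7677 and 8864 units (0.15, spot SD 0.0429), and Sars, the seryl enzyme, read 20542 and 18479 units (-0.21, spot SD 0.0437). Subtracting the local median of neighbouring spots brought Sars to -0.10. Gars, whose gene also gives the mitochondrial glycyl enzyme, was at -0.13, the tyrosyl enzyme Yars at -0.17, and Hars (histidyl), Tars (threonyl) and Cars (cysteinyl) lay close to 0. Cystathionine gamma-lyase makes cysteine, the amino acid that Cars charges, and Cars read 10509 and 10887 units, a difference of -0.0045 with a spot SD of 0.0432.

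The phenylalanyl enzyme is built from an alpha subunit (Farsa) and a beta subunit (Farsb), and their genes differed in sign. Farsb was at -0.12, and the highest-level Farsa probe read 1936 units in CSE-WT and 2137 in CSE-KO (0.09, spot SD 0.051). Another Farsa probe, whose 60 bases span 161 genomic bases, read 787 and 841 units (0.04). The third read only 24.0 and 55.9 units, a difference of 1.16 with a spot SD of 0.2603, so the 3 Farsa probes spread over 1.12 log2 units.

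The 2 Farsa probes below the top one are shown because they gave such unlike differences. The second, at chr8:87391534-87391694 on the plus strand of mm9, can be read in one frame without a stop codon. The dim probe, at chr8:87390408-87390467 on the same strand, has a stop codon in every frame.
Farsa, second probe: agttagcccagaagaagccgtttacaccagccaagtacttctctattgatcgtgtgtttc
Farsa, dim probe: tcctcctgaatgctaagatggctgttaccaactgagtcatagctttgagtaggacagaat

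**Figure D2:**
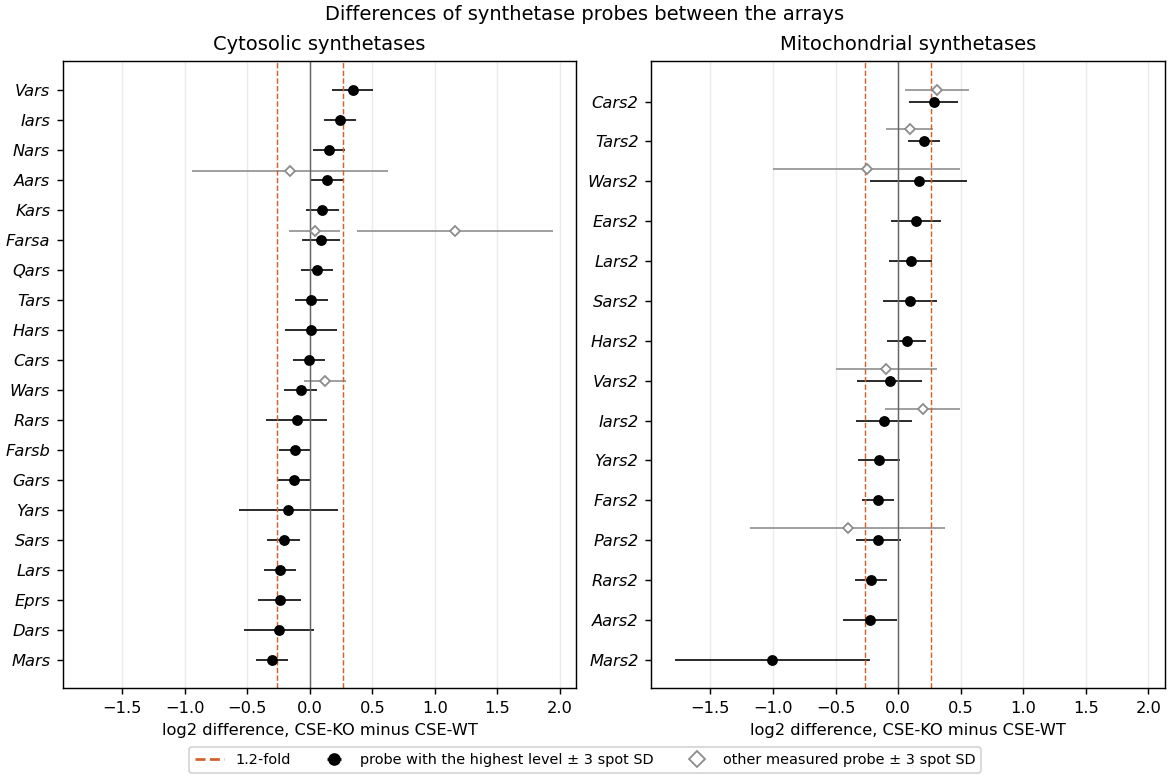
Log2 difference, CSE-KO minus CSE-WT, of every measured synthetase probe, with bars of 3 spot SD; filled circles are the highest-level probe of a gene, open diamonds its other probes, and dashed lines 1.2-fold. Mars2 (-1.01) and the dim Farsa probe (1.16) lie far from the others and carry wide bars because both are dim.

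Of the 16 mitochondrial members, 15 were measured, with 7 higher, 8 lower and a median of -0.07. Mars2, the mitochondrial methionyl enzyme, read 63.9 units in CSE-WT and 33.1 in CSE-KO, which is 2.01-fold lower (-1.01, spot SD 0.2603). The probe lay near the lowest intensity called well above background, 17.7 units in CSE-WT and 14.5 in CSE-KO. Over the processing settings its difference ran from -1.07 to -0.70, so it was lower in each and past 2-fold in only some. Nars2, the asparaginyl enzyme, was not well above background in CSE-WT, at 8.79 units, and read 24.4 units in CSE-KO. Set against the lowest well-measured intensity of CSE-WT, each array scaled by its percentile, its CSE-KO reading was 1.32-fold higher (0.40, spot SD 0.2603). That value is under 3 times the spot SD, so it is not a firm lower limit.

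Cars2, the cysteinyl enzyme, was higher by both of its probes. The first read 836 units in CSE-WT and 1057 in CSE-KO, or 1.22-fold higher (0.28, spot SD 0.0643), and the second read 301 and 388 units (0.31, spot SD 0.0854). It was the one member past 1.2-fold with a second measured probe. Tars2, the threonyl enzyme, was also on the higher side by both probes, at 4163 and 4984 units (0.20, spot SD 0.0423) and 977 and 1082 units (0.09). Rars2, the arginyl enzyme, read 4692 and 4194 units (-0.22, spot SD 0.0423), and Aars2, the alanyl enzyme, read 733 and 653 units (-0.22, spot SD 0.0718). Subtracting the local median of neighbouring spots brought Aars2 to -0.11. Of the remaining mitochondrial genes Ears2 (0.14), Lars2 (0.10), Sars2 (0.09) and Hars2 (0.07) were above 0, whereas Fars2 (-0.16), Pars2 (-0.16, with -0.40 by a dim second probe), Yars2 (-0.15) and Vars2 (-0.07) were below it.

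Members reported by several probes allow their probes to be set against each other. Of the 9 genes with several measured probes, 4 gave differences of opposite sign, and the median gap between probes of a gene was 0.25 beside 0.18 over 6144 such genes on the arrays, of which 43.9% differed in sign. Aars, the alanyl enzyme, read 12286 and 14028 units by one probe (0.14, spot SD 0.0434) and 30.2 and 28.1 units by the other (-0.16, spot SD 0.2603). Wars, the tryptophanyl enzyme and a known interferon-gamma target, read 23133 and 22854 units by one (-0.07) and 1271 and 1436 units by the other (0.12). The dim Aars probe differed by less than its spot SD, and neither Wars probe by 3 times its SD.

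Wars2 and Iars2 showed the same split among the mitochondrial enzymes. Wars2 read 147 and 172 units by one probe (0.17, spot SD 0.1293) and 58.8 and 51.3 units by the other (-0.25, spot SD 0.2487). Iars2 read 655 and 630 units by its first probe (-0.11, spot SD 0.0736) and 230 and 274 units by its second (0.20, spot SD 0.0997). None of these probes differed by 3 times its SD. The Iars2 probes, both free of stop codons in at least one frame, are printed as a pair of measured probes of one gene with opposite signs. The first spans 908 genomic bases at chr1:187111041-187111948 and the second lies at chr1:187139773-187139832, both on the minus strand of mm9.
Iars2, first probe: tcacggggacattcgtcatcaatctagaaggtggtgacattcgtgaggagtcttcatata
Iars2, second probe: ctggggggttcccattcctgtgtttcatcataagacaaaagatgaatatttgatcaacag

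Cytosolic and mitochondrial enzymes for the same amino acid could be paired in 15 cases, and 6 of these had the same sign. Eprs was used in both the pair with Ears2 and the pair with Pars2. Of all measured genes 48.7% were higher and 51.3% lower, and whether pairs share a sign more or less often than other genes was not tested. Both partners were lower in 4 pairs (Mars with Mars2, Eprs with Pars2, Rars with Rars2 and Yars with Yars2) and both higher in 2 (Hars with Hars2 and Tars with Tars2), while 9 pairs were opposite. Fars2 was set against Farsa here, and with Farsb in its place 7 pairs had the same sign. In 4 of the opposite pairs (Aars with Aars2, Cars with Cars2, Iars with Iars2, and Wars with Wars2) a partner changed sign over the processing settings. Both of the higher pairs also held such a partner, Hars (-0.07 to 0.04) and Tars (-0.05 to 0.06), and none of the 4 lower pairs did. Methionine was the only amino acid for which both enzymes were past 1.2-fold in the same direction. Valine and cysteine had 1 enzyme each past 1.2-fold, with Vars at 0.34 beside Vars2 at -0.07, and Cars2 at 0.28 beside Cars at -0.0045.

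By structural class, the 18 class I enzymes had 7 higher, 11 lower and a median of -0.07. All 4 members past 1.2-fold were among these 18, and 23% of all genes were past 1.2-fold in either direction. Eprs, whose protein charges both glutamate and proline, was placed in neither class. The 16 measured class II enzymes had 9 higher, 7 lower and a median of 0.01, with none past 1.2-fold. With normexp background correction the order turned, with a median of -0.0465 for class I and -0.0606 for class II. Class II genes were past 1.2-fold in some settings, Dars with cyclic loess (-0.28) and spike-in scaling (-0.27), and Farsa (0.43) and Pars2 (-0.28) where probes were averaged. Nars2, also of class II, was at 1.42 with no filter on dim probes. Class was a property the choice of members did not use, and no test of the difference was possible with 1 array per genotype.

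The cytosolic enzymes whose genes are known ATF4 targets are Aars, Cars, Eprs, Gars, Iars, Lars, Mars, Nars, Sars, Tars, Wars and Yars. Of these 12, 4 were higher and 8 lower, with a median of -0.10 and 1 gene (Mars) past 1.2-fold. The other 8 cytosolic members had 5 higher, 3 lower and a median of 0.03. Across the processing settings the median of the 12 ran from -0.13 to -0.05 and that of the other 8 from -0.03 to 0.07. Over all genes 48.7% were higher and 51.3% lower. Atf4 itself read 75586 units in CSE-WT and 86741 in CSE-KO (0.14, spot SD 0.0437). Its other measured probe was at 0.2683, just past 1.2-fold. The ATF4 targets that are not synthetases were spread far more widely: of 26 measured, 6 were more than 1.2-fold higher and 9 more than 1.2-fold lower, with a median of -0.11. Differences past 1.2-fold were seen for 12.4% (higher) and 10.6% (lower) of all genes. The arginine and lysine transporter Slc7a3 read 289 and 108 units (-1.47), the serine synthesis enzyme Psat1 3194 and 1715 units (-0.95), the mitochondrial folate enzyme Aldh1l2 2975 and 1601 units (-0.95), and the pseudokinase Trib3 1296 and 2200 units (0.71). The synthetases of the same regulon showed no differences of that size.

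**Figure D3:**
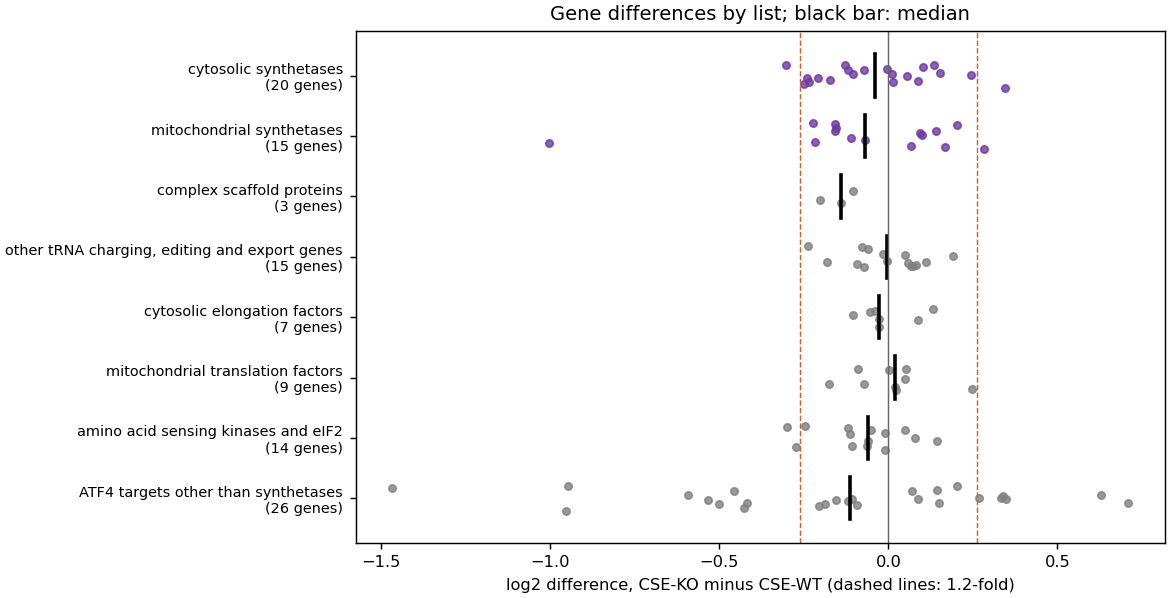
Log2 difference, CSE-KO minus CSE-WT, of each measured gene of the synthetase lists (purple) and of neighbouring translation and ATF4 lists (grey), with a black bar at each median and dashed lines at 1.2-fold. Apart from Mars2 the synthetases lie between -0.30 and 0.34, whereas the other ATF4 targets run from -1.47 to 0.71.

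Promoters were searched for the C/EBP-ATF response element, the sequence that ATF4 binds together with a C/EBP protein, since it is the element through which many synthetase genes are known to be induced. RefSeq promoters of build GRCm38.p6, running from 250 bases before to 50 bases after a gene's start, were found for 27 of the 36 members, which gave 28 promoters. Cars, Hars, Hars2, Lars, Nars, Pars2, Rars, Vars and Wars had no entry. The letters TGATGNAAT, read on both strands, stood in 3 of the 28 promoters (10.7%), those of Aars, Gars and Iars, beside 0.965% of all 32851 promoters in the table. The looser TGATGNAAN, which includes the former, stood in 5 (17.9%), with Tars and Yars added, beside 3.95% of all. The 5 genes had differences of 0.14 (Aars), -0.13 (Gars), 0.24 (Iars), 0.01 (Tars) and -0.17 (Yars), so carriers of the letters lay on both sides of 0. No match says only that the letters are not in this window.

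The promoters of Aars, Gars and Iars are printed because they hold the stricter letters, a choice made after the matches were seen, and those of Mars and Cars2 because both genes were past 1.2-fold and hold neither form. Each is given on its gene's own strand in lower case, with capitals for every match to TGATGNAAN; all the matches shown lie on the opposite strand and so read as the reverse complement. Counted from the start site, the strict match covers bases -113 to -105 in Aars, -31 to -23 in Gars and 7 to 15 in Iars, and Aars has a second, looser match at 9 to 17. The places are chr8:111033592-111033891 (plus strand) for Aars, chr6:55037751-55038050 (plus) for Gars, chr13:49681880-49682179 (plus) for Iars, chr10:127311737-127312036 (minus) for Mars and chr8:11550722-11551021 (minus) for Cars2.
Aars promoter: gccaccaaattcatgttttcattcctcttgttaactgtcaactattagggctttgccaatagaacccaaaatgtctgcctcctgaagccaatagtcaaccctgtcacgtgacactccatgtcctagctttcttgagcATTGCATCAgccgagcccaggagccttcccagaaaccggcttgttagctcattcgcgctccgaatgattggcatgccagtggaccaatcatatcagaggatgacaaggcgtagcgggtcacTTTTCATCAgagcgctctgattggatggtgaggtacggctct
Gars promoter: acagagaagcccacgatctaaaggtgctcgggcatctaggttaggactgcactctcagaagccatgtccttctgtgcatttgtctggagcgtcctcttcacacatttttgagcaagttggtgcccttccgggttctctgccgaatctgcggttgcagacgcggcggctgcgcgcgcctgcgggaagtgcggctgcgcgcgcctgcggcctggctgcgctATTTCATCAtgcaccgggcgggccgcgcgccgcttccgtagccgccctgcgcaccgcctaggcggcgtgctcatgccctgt
Iars promoter: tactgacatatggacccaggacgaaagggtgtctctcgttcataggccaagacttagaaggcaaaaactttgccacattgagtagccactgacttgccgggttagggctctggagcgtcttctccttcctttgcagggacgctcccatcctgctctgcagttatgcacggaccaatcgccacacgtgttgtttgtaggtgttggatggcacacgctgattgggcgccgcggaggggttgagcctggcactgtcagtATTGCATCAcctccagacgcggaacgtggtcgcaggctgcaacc
Mars promoter: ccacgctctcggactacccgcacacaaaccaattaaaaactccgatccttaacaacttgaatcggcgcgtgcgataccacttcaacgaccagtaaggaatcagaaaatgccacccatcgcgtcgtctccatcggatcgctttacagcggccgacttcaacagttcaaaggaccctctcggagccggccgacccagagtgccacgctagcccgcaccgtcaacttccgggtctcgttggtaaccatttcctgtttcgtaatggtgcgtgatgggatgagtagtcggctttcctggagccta
Cars2 promoter: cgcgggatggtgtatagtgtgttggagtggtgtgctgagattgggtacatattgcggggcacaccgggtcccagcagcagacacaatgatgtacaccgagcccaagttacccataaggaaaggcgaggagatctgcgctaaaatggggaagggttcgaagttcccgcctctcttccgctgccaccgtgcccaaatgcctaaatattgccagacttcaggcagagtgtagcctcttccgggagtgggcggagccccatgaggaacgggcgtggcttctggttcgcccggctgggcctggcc

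Other steps around tRNA charging were set beside the synthetases. None of 15 further genes for charging, editing and export of tRNA was past 1.2-fold, where 23% of all genes were (7 higher, 8 lower, median -0.0049), and Dtd1, which removes D-amino acids from tRNA, had the widest difference (8919 and 7857 units, -0.24). Of 14 genes of the eIF2 pathway (Atf4, the eIF2 subunits, the exchange factor eIF2B, the eIF2 kinases and Gcn1, a partner of the amino acid-sensing kinase Eif2ak4), 3 were higher and 11 lower (median -0.06). The higher genes were Atf4, Gcn1 and Eif2b1, the last 2 named after their values were seen. Over all genes 48.7% were higher and 51.3% lower. With the local median of neighbouring bright spots subtracted, the list median was -0.003. Eif2ak4 and Eif2s2, counted as lower, each also had a measured probe on the higher side (1.09 and 0.23). The other genes counted as lower had no such probe. In this list Eif2s3x (1017 and 858 units, -0.30) and Eif2b3 (1250 and 1076 units, -0.27) were more than 1.2-fold lower, where 10.6% of all genes were. None of 7 cytosolic elongation factors or 9 mitochondrial translation factors was past 1.2-fold, with medians of -0.03 and 0.02.

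The arrays also carried signal from cells other than beta cells, and some of it differed between the genotypes. Ins1 (503410 and 482701 units) and Ins2 (332046 and 330923 units) were well above background, and so were the alpha-cell hormone Gcg (381292 and 360773 units) and the acinar enzyme Amy2a5 (191897 and 149025 units). The 10 beta-cell markers had a median difference of -0.09 and a summed intensity of 1451764 units in CSE-WT and 1399436 in CSE-KO. Across the processing settings that median ran from -0.11 to 0.01, and it was above 0 with quantile normalization and the authors' table. The 13 acinar markers, from a cell type rich in protein synthesis, had 7 higher, 6 lower, a median of 0.01 and sums of 573116 and 567605 units. All 5 measured stellate and fibroblast markers were higher (median 0.84, sums 1374 and 2106 units; Lum and Pdgfra not measured), as were 8 of 9 macrophage markers (median 0.45, sums 14603 and 19289 units). All 8 proliferation markers were more than 2-fold higher by their highest-level probe (median 1.196, sums 1552 and 3810 units). Another measured probe of Cdk1 was lower (-2.32), and others of Ccnb1 (0.44) and Birc5 (0.75) were under 2-fold. Mki67 was higher by both probes (1.43 and 1.47). Over all genes 48.7% were higher and 0.718% were more than 2-fold higher. Fewer cells of a type and less RNA per cell cannot be told apart in such samples, and the part of these cells in the synthetase values was not tested.

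The processing settings moved most members little. Over 11 alternatives, 27 of the 35 genes kept their sign in every setting that gave them a value, 16 of them lower and 11 higher. The share of all genes that did so is not given here. The alternatives were not independent, as the authors' table gave almost the values of quantile normalization (Vars 0.3516 and 0.3512). The 8 that did not were Aars, Cars, Hars, Iars2, Qars, Tars, Wars and Wars2. Vars ranged from 0.29 to 0.38 and Mars from -0.33 to -0.25, so Vars stayed past 1.2-fold (0.263 in log2) in each setting and Mars did not. Cars2 ranged from 0.22 to 0.32 and was under 1.2-fold with spike-in scaling (0.26) and normexp (0.22).

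**Figure D4:**
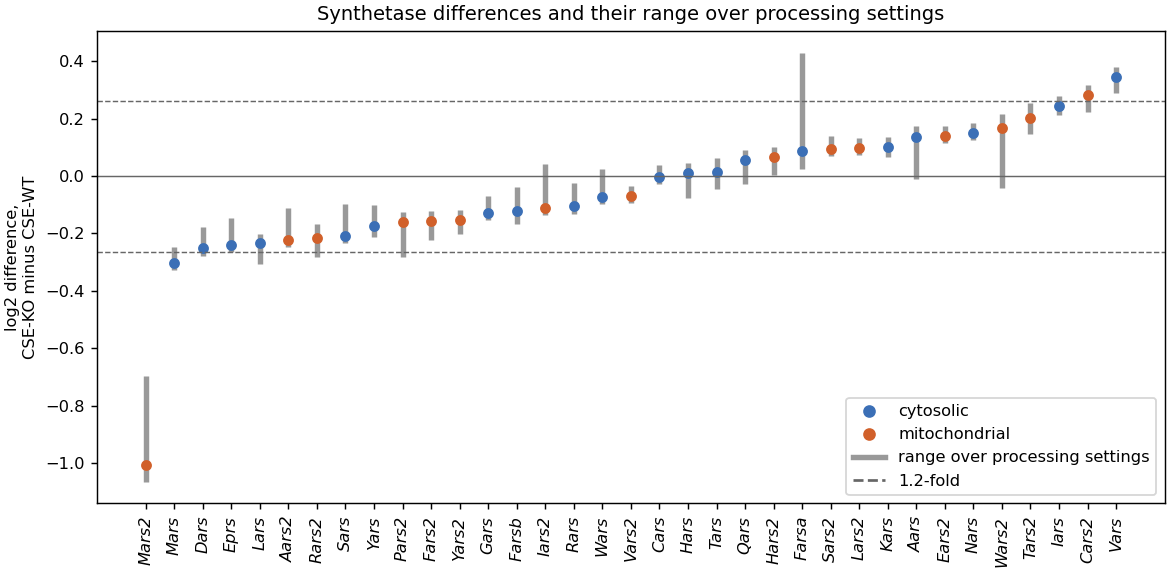
Log2 difference, CSE-KO minus CSE-WT, of the 35 measured synthetases in order (blue cytosolic, orange mitochondrial), with a grey bar for the range over the processing settings and dashed lines at 1.2-fold. Mars2 was lower in every setting (-1.07 to -0.70), and the long Farsa bar reaches 0.43 where its 3 probes are averaged.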

How the data were processed

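Per the file headers, both arrays were quantified with Agilent Feature Extraction 10.7.1.1 (the submitters' processing notes name 9.5.1.1), and the deposited values are spot intensities on a linear scale, with a fitted background surface subtracted and spatial trends removed. The authors also deposited a table of normalized intensities, used as an alternative. Log2 intensities were taken without outlier spots, spots of a probe were averaged, and each array's 75th percentile over gene probes was subtracted. A probe was measured when well above background on both arrays, and the highest-level probe stood for a gene. With 1 array per genotype there is no test, and differences are described by size (1.2-fold, 2-fold) and by the spot SD. The members and gene lists were chosen with earlier results of these data known. Every member was named, with both intensities for those past 1.2-fold, with discordant probes, at the extremes of each compartment or not measured; for other lists, at most 4 genes with the largest differences, plus Atf4, Cth and 4 cell markers. Alternatives covered scaling, background, filters, probe choice and local patches. Python 3.11.15, R 4.3.3 and limma 3.58.1 were used, and the steps were tested on simulated data.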

Additional observations from a re-analysis of the deposited data

How the results depend on the processing

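No paired analysis was possible because each genotype has 1 array, and no replicate could be left out for the same reason. Of the 289 gene values that an alternative could move, 258 moved by less than 1 spot SD and 31 by more, and no gene past 1.2-fold changed sign. The count of synthetases more than 1.2-fold higher, 2 as reported, was 1 with spike-in scaling and 1 with normexp background correction, and 3 with scaling to the median, quantile, cyclic loess, the authors' table, no filter or probes averaged. The count more than 1.2-fold lower, 2 as reported, was 4 with spike-in scaling, 3 with cyclic loess, normexp or probes averaged, and 1 with the local median subtracted, an alternative chosen after seeing the data. Past 2-fold higher there were 0, and 1 (Nars2) with no filter on dim probes. Past 2-fold lower there was 1 (Mars2), and 0 with scaling to the median, quantile normalization, normexp, the authors' table or the local median subtracted. The cytosolic median ran from -0.06 to 0.0020, changing sign only with the local median subtracted, and the mitochondrial median from -0.09 to -0.0009. Over all genes, 159 were more than 2-fold higher and 197 lower; normexp gave 94 and 157, and no filter on dim probes 1128 and 1436. More than 1.2-fold, the counts were 2743 and 2348, and 5583 and 10450 with no filter. Dim probes such as those of Mars2, Nars2 and the dim Farsa probe have the largest spot SD, held at 0.2603 and possibly too small, which limits what can be said of them.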
